A study of Mus musculus with 12 samples.

Results

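The *Ifi200* genes are the mouse PYHIN family, a run of related genes on chromosome 1 that encode nuclear and cytosolic proteins with a pyrin domain, a DNA-binding HIN domain, or both. Members were the rows whose gene symbol was one of 10 names, *Ifi202b*, *Ifi203*, *Ifi204*, *Ifi205*, *Ifi206*, *Ifi207*, *Ifi208*, *Ifi209*, *Ifi211* and *Ifi213*, a rule that reads symbols and no measured value. Of the 12850 genes listed for the series, 8 carried one of these symbols. The expression of *Ifi202b* was not analysed here. *Ifi206* was found only under an older symbol, *Gm4955*, which RefSeq gives as a synonym of *Ifi206*, and *Gm4955* is therefore described beside the 8 members and not counted among them.

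RNA was sequenced from peritoneal exudate cells (PECs), the cells drawn from the peritoneal cavity of C57BL/6 mice after an injection of thioglycollate, an irritant that attracts macrophages. The mice were wild type (WT) or homozygous for a knock-in allele of *Zc3h12a* (*Zc3h12a* S513A/S513A, here S513A), made with CRISPR/Cas9 in fertilized C57BL/6J eggs. *Zc3h12a* encodes Regnase-1, an RNase that degrades inflammatory mRNAs, and the allele replaces a serine whose phosphorylation lets 14-3-3 proteins bind. Cells of each genotype were cultured with LPS, a bacterial cell wall component that activates TLR4, at 100 ng/ml for 0, 4 or 8 hr, with 2 libraries in each of the 6 groups and 12 in all. Neither the age of the mice nor whether the 2 libraries of a group came from separate animals is given in the sources used here, so p values measure the spread between these libraries.

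Reads on the listed genes numbered between 9525979 and 12439960 per library. As a guide to low values, 3 reads correspond to a log2 CPM (log2 of reads scaled to library size) of -2.04 to -1.30. No value was raised or removed at that level. All 10 macrophage markers were listed, at a summed 16850 to 27900 CPM per library. Of the other lists, 3 of 10 neutrophil markers summed to between 362 and 746 CPM, 2 of 12 T and NK cell markers to at most 2.6 CPM, and 6 of 9 dendritic cell markers to between 27.0 and 50.3 CPM. Some lists moved with LPS. The 9 resident peritoneal macrophage markers summed to 108 to 166 CPM before LPS, 514 to 893 CPM after 4 hr and 176 to 293 CPM after 8 hr. Mast cell markers (5 of 8 listed) summed to 2.39 to 3.42, 8.54 to 10.7 and 5.84 to 8.06 CPM at these times, eosinophil markers (3 of 7) to 18.1 to 20.8, 9.70 to 11.7 and 4.71 to 6.25 CPM, and B cell markers (6 of 8) to 10.6 to 16.9, 19.98 to 23.2 and 15.3 to 26.8 CPM. Their part in the changes after LPS was not tested. *Zc3h12a* mRNA, whose level does not check the allele, was at a log2 CPM of 4.99 to 5.39 at 0 hr, 7.87 to 8.11 at 4 hr and 6.80 to 7.11 at 8 hr.

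PYHIN proteins are known as DNA sensors and as regulators of transcription. *Aim2*, next to the cluster, encodes the sensor that assembles an inflammasome on cytosolic DNA. *Ifi204*, whose protein p204 is often set beside human IFI16, has been linked to sensing of DNA ahead of the adaptor STING and to macrophage differentiation. Many genes of the cluster are interferon-stimulated, and LPS induces type I interferon in macrophages through the adaptor TRIF. In RNA from whole PEC cultures, a change in the number of cells of a type and a change in RNA per cell cannot be told apart.

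The RefSeq annotation of GRCm38 places the cluster on chromosome 1 from *Ifi206* (chr1:173468485-173491318) to *Ifi205* (chr1:174011998-174031755). The promoter window of RefSeq, 250 bases before to 50 after an annotated start (GRCm38.p6), was found for 9 of the 10 names, all but *Ifi204*. The interferon-stimulated response element (ISRE), the site of the ISGF3 and IRF factors, was searched on both strands as GAAA and GAAA with any 2 bases between. It was in a window of 7 of those 9 genes, *Ifi203*, *Ifi205*, *Ifi206*, *Ifi207*, *Ifi208*, *Ifi211* and *Ifi213*, and in a window of 3.99% of all 27025 genes in the table. The 6 windows printed here were chosen to set the member with the largest change after LPS (*Ifi205*) beside that with the smallest (*Ifi207*). *Ifi206* is shown with a related window (*Ifi213*, 78.7% identical in a global alignment). *Ifi209* and *Ifi214* are shown as a near-identical pair. Capitals mark the ISRE match and, in *Ifi209*, the 10 bases that lie at the place of the match in *Ifi214*.
*Ifi205* (chr1:174031706-174032005, minus strand): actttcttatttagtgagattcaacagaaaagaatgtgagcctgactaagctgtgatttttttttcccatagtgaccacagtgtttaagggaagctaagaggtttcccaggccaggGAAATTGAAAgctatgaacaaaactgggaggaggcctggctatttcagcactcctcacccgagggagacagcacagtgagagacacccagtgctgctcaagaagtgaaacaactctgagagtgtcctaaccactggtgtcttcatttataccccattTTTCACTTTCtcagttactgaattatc
*Ifi207* (chr1:173741760-173742059, minus strand): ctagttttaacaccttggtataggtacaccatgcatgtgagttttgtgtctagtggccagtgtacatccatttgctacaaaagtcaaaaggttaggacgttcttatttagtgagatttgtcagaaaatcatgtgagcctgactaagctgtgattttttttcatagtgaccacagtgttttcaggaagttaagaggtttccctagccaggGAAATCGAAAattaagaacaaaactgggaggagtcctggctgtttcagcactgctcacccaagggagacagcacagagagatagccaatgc
*Ifi206* (chr1:173491269-173491568, minus strand): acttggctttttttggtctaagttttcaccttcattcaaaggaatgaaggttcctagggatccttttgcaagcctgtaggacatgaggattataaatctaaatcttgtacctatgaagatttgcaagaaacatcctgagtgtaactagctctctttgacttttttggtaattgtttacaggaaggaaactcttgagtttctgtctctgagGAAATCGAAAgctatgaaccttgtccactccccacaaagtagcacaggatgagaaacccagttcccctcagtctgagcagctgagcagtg
*Ifi213* (chr1:173599223-173599522, minus strand): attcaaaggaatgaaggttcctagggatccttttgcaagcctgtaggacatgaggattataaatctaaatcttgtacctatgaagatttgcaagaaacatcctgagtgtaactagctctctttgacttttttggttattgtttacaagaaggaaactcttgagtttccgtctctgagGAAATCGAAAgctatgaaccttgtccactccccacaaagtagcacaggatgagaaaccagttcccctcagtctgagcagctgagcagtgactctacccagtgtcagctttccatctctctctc
*Ifi209* (chr1:173630609-173630908, plus strand): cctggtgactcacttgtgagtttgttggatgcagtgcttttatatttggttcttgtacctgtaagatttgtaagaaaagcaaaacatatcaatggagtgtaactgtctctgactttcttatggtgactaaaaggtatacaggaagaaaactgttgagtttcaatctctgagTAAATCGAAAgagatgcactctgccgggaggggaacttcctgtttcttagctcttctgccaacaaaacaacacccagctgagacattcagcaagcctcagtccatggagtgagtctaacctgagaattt
*Ifi214* (chr1:173535908-173536207, minus strand): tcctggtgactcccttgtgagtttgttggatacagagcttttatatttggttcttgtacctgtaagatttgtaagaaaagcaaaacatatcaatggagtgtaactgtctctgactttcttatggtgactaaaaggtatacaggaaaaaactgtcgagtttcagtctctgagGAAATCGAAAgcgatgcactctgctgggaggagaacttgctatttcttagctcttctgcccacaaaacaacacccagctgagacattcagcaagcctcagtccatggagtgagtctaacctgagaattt

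The match had the same 10 letters, GAAATCGAAA, in *Ifi203*, *Ifi206*, *Ifi207*, *Ifi208*, *Ifi213*, *Ifi214* and *Mndal*, another PYHIN gene. These letters were taken as the commonest match in the PYHIN windows, so the number of PYHIN genes that hold them is no test. They stood in 16 of the 32851 windows (0.0487%), on either strand, and 7 of the 16 genes that hold them are these PYHIN genes. Of the other 9 genes, 5 were tested, and 2 of these, *Ddx58*, the RNA sensor RIG-I, and *Parp11*, were higher at 4 hr of LPS than at 0 hr by limma, against 29.1% of all genes tested. The other 3 did not pass, with log2 changes of -0.19 for *Pnrc1*, -0.03 for *Ripk1* and -0.26 for *Serpinb6a*. *Ifi205* and *Ifi211* had GAAATTGAAA instead, 134 and 37 bases before the start, and *Ifi205* also had a match on the other strand, 23 bases after the start. The *Ifi209* window held no match. Its closest 10 bases carried the change G1T against GAAATCGAAA, counted from 1 at the first base of the match, and the *Ifi209* and *Ifi214* windows were 95.4% identical in a global alignment. *Ifi203* and *Mndal* were 90.7% identical in the windows that hold GAAATCGAAA. *Ifi208* and *Ifi213* were 89.5% identical, *Ifi206* and *Ifi208* 87.5%, and *Ifi207* and *Ifi211* 85.9%.

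Other motifs were in fewer of the 9 genes than the ISRE was. The gamma-activated site (GAS), searched as TTCNNNGAA, was in the *Ifi202b* window alone among the 9 genes, against 9.55% of all genes. The AP-1 site, searched as TGANTCA, was in those of *Ifi203* and *Ifi209*, against 8.97%. The NF-kappaB motif was also in *Ifi203* and *Ifi209*, against 9.55%. No motif match overlapped an ISRE match. A match describes the letters and is not a binding site.

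LPS raised the *Ifi200* family at 4 hr, with mean changes (both genotypes) that ran from 1.46 on the log2 scale for *Ifi207* to 6.84 for *Ifi205*. Of the 8 members, 6 reached 1 CPM in at least 2 libraries at 0 hr (measurable at 0 hr), and all 6 were higher at 4 hr by limma at an adjusted p of 0.05 or less. Of all genes that reached that level at 0 hr, 28% were higher. The median change of the 6 was 3.75, against -0.0072 over those genes. The other members, *Ifi208* and *Ifi213*, entered the test only because LPS brought them above the filter, so their calls add no support. Over all genes tested, 29.1% were higher at 4 hr.

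*Ifi205*, first described as an LPS- and interferon-inducible transcript of macrophages, changed most. At 0 hr its log2 CPM was 0.58 and -0.06 in the WT libraries and 1.16 and 0.92 in the S513A libraries. At 4 hr it was 7.44 and 6.98 in WT and 7.46 and 8.09 in S513A, and at 8 hr 6.31 and 6.99 in WT and 6.61 and 7.25 in S513A. All LPS libraries were far above all 0 hr libraries, by 6.84 ± 0.22 (log2 fold change ± SE, adjusted p = 1.5e-09, limma) at 4 hr. In reads, 80 over the 4 libraries at 0 hr stood against 7482 at 4 hr, a ratio of 115.5-fold at equal library size (95% interval 92.7 to 145.9, counting error only).

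*Ifi213* and *Ifi208*, whose older names Pydc4 and Pydc3 mark them as pyrin-domain genes, were near absent before LPS. *Ifi208* had 7 and 1 reads in the WT libraries and 2 and 6 in the S513A libraries at 0 hr, and *Ifi213* had 6 and 2 in WT and 5 and 3 in S513A. At 4 hr *Ifi208* had 148 and 112 reads in WT and 177 and 144 in S513A, and *Ifi213* had 228 and 176 in WT and 212 and 292 in S513A. The log2 fold changes at 4 hr were 5.60 ± 0.43 for *Ifi208* and 6.04 ± 0.29 for *Ifi213* (adjusted p = 1.1e-06 and 2.8e-08, limma). Both genes entered the test only through the LPS libraries, so these p values add no support. As ratios of reads they were 44.9-fold (27.4 to 79.0) for *Ifi208* and 70.1-fold (42.9 to 123.2) for *Ifi213*. The fitted values of both depend on the offset of 0.5 read in the deposited values.

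*Ifi211*, *Ifi203*, *Ifi209* and *Ifi204*, members of the family with HIN domains, were expressed before LPS, and all rose. *Ifi211* stood at a log2 CPM of 3.25 and 3.51 in WT and 3.77 and 3.85 in S513A at 0 hr, and at 8.00 and 7.59 in WT and 8.21 and 8.48 in S513A at 4 hr. *Ifi203* went from 4.33 and 4.35 in WT and 4.26 and 4.54 in S513A to 8.11 and 8.35 in WT and 8.52 and 8.71 in S513A. Both genes changed by over 4 on the log2 scale, 4.47 ± 0.14 for *Ifi211* and 4.05 ± 0.10 for *Ifi203* (adjusted p = 1.18e-09 and 2.06e-10, limma).

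*Ifi209* was at a log2 CPM of 4.64 and 4.65 in WT and 4.83 and 4.93 in S513A at 0 hr, and at 8.06 and 7.90 in WT and 8.28 and 8.64 in S513A at 4 hr. *Ifi204* went from 5.56 and 5.58 in WT and 5.79 and 5.73 in S513A to 8.50 and 8.31 in WT and 8.76 and 9.05 in S513A. The changes were 3.45 ± 0.12 and 2.99 ± 0.11 on the log2 scale (adjusted p = 2.92e-09 and 2.37e-09, limma), and no 0 hr library reached the level of a 4 hr library.

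*Ifi207*, another pyrin and HIN gene, was the most abundant member per length before LPS and the least changed. Its log2 CPM was 6.67 and 6.79 in WT and 6.90 and 6.70 in S513A at 0 hr, 8.04 and 8.41 in WT and 8.27 and 8.20 in S513A at 4 hr, and 7.35 and 7.45 in WT and 7.74 and 7.61 in S513A at 8 hr. The groups did not overlap between times, and the change was 1.46 ± 0.09 (95% interval 1.25 to 1.67) at 4 hr and 0.77 ± 0.09 (0.56 to 0.98) at 8 hr, both below the intervals of the other 7 members at the same time. The *Ifi207* promoter window printed above holds the same ISRE letters as those of *Ifi208* and *Ifi213*, whose changes lie at the upper end of the family. Whether the letters bear on the size of a change was not tested.

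**Figure D1:**
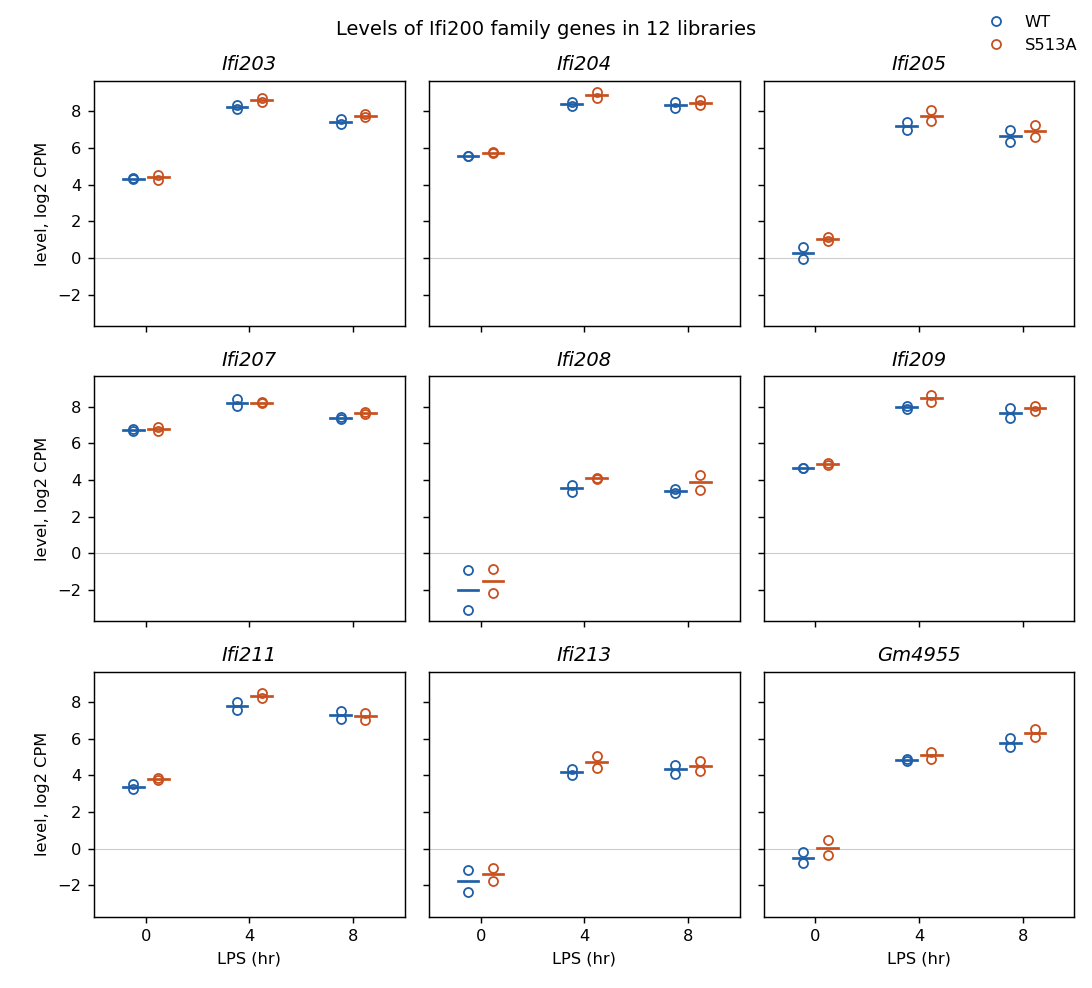
Levels (log2 CPM) of the 8 members and of *Gm4955* against hours of LPS, with one open circle per library, WT in blue and S513A in orange, and a bar at the mean of the 2 libraries of each group. Every LPS library lies above every 0 hr library in all 9 panels, and *Gm4955* alone is higher at 8 hr than at 4 hr in every library. The share of all genes that separate so between times was not counted.

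At 8 hr all 6 members that were measurable at 0 hr were still higher than at 0 hr, against 23.3% of all genes measurable at 0 hr and 24.5% of all genes tested. The changes ran from 0.77 for *Ifi207* to 6.14 ± 0.22 for *Ifi205*, with *Ifi213* at 6.01 ± 0.29 and *Ifi208* at 5.41 ± 0.43, *Ifi211* at 3.66 ± 0.14, *Ifi203* at 3.24 ± 0.10, *Ifi209* at 3.03 ± 0.12 and *Ifi204* at 2.75 ± 0.11. The order of the members was that of 4 hr. In WT alone the same 6 were higher at 4 hr and at 8 hr, where 22.6% and 19.4% of all genes were, and so were they in S513A alone, where 23.1% and 20.9% were. The comparisons at 4 and 8 hr share their 0 hr libraries.

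**Figure D2:**
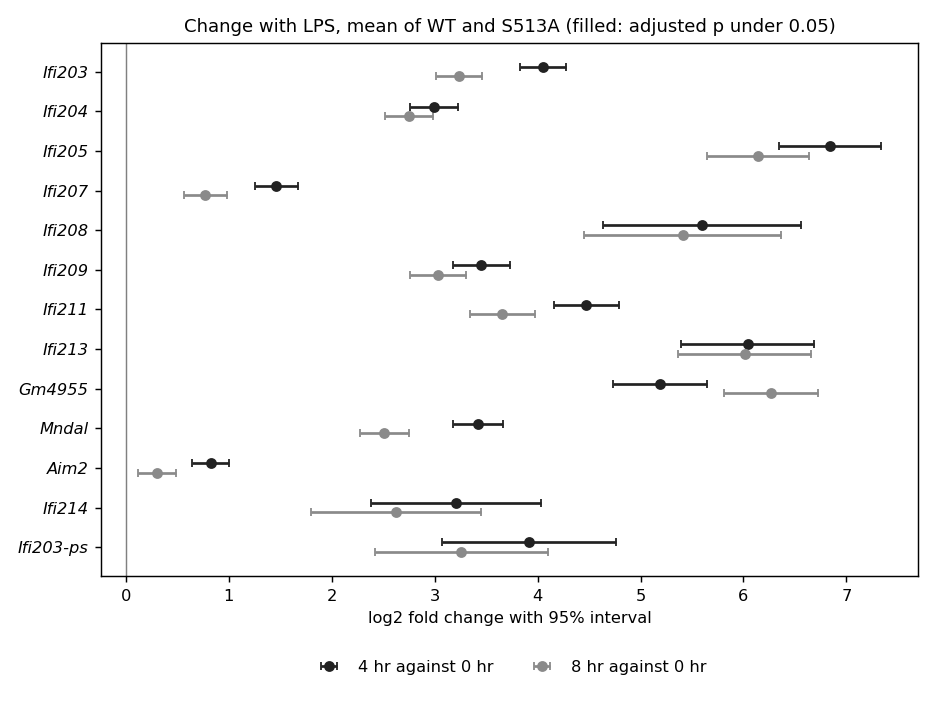
Log2 fold change against 0 hr, mean of both genotypes, with 95% intervals, at 4 hr (black) and 8 hr (grey) for the 8 members and 5 other PYHIN genes. Filled points passed an adjusted p of 0.05. *Ifi207* and *Aim2* have the smallest changes, 1.46 and 0.82 at 4 hr, and *Ifi205* the largest, 6.84. *Ifi208*, *Ifi213*, *Gm4955*, *Ifi214* and *Ifi203-ps* entered the test only through the LPS libraries, so their filled points add no support.

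From 4 to 8 hr all 8 estimates were negative and 5 passed the test. Differences between members in this change were not tested. *Ifi203* fell by 0.82 on the log2 scale, *Ifi211* by 0.82, *Ifi205* by 0.70, *Ifi207* by 0.69 and *Ifi209* by 0.42 (adjusted p = 0.00024, 0.0021, 0.042, 0.00046 and 0.030, limma, mean of both genotypes), which is 5 of 8 members, against 12.8% of all genes lower and 12.8% higher. Levels of *Ifi203*, *Ifi207* and *Ifi211* at 8 hr lay below all 4 hr libraries, while those of *Ifi205* and *Ifi209* overlapped. How many of all genes separate in this way was not counted. *Ifi203* at 8 hr was at a log2 CPM of 7.30 and 7.58 in WT and 7.71 and 7.84 in S513A, and *Ifi209* at 7.41 and 7.92 in WT and 7.79 and 8.06 in S513A. *Ifi204* was at 8.19 and 8.53 in WT, close to its 4 hr level. In S513A it was at 8.34 and 8.61, a change of -0.43 from 4 hr (95% interval -0.76 to -0.11, adjusted p = 0.066, limma). The difference between the genotypes in this change was not tested. *Ifi208* was at 3.30 and 3.49 in WT and 3.47 and 4.26 in S513A, and *Ifi213* at 4.10 and 4.59 in WT and 4.25 and 4.77 in S513A. These 3 genes did not pass the test, in the order *Ifi204*, *Ifi208* and *Ifi213* at -0.24 (95% interval -0.47 to -0.01, adjusted p = 0.13), -0.19 (-1.15 to 0.77) and -0.03 (-0.68 to 0.62).

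In WT alone *Ifi203* and *Ifi207* passed, where 7.49% of all genes were lower, and in S513A alone *Ifi203*, *Ifi207* and *Ifi211* did, where 8.99% were. *Ifi211* went from 8.00 and 7.59 to 7.06 and 7.52 in WT and from 8.21 and 8.48 to 7.01 and 7.43 in S513A. The count of 5 fell to 3 without any one of the first WT library at 4 hr, the first WT library at 8 hr, the second S513A library at 4 hr or the first S513A library at 8 hr. The count in WT fell from 2 to 1 without the first WT library at 8 hr, and that in S513A fell from 3 to 1 without the second S513A library at 4 hr and rose to 5 without either WT library at 4 hr or the second S513A library at 8 hr.

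*Gm4955*, the older symbol of *Ifi206*, went the other way. Its log2 CPM was -0.20 and -0.79 in WT and 0.44 and -0.33 in S513A at 0 hr, 4.80 and 4.90 in WT and 4.91 and 5.27 in S513A at 4 hr, and 5.53 and 6.04 in WT and 6.11 and 6.53 in S513A at 8 hr. All 4 libraries at 8 hr lay above all 4 at 4 hr, by 1.08 ± 0.21 (95% interval 0.62 to 1.54, adjusted p = 0.0034, limma). The rise passed the test in S513A (1.22 ± 0.29, adjusted p = 0.018) and not in WT (0.93 ± 0.29, adjusted p = 0.058), and the difference between the genotypes in this rise was not tested. Read numbers were 7 to 15 at 0 hr, 306 to 332 at 4 hr and 487 to 852 at 8 hr, so *Gm4955* also entered the test only through the LPS libraries. Its promoter window and that of *Ifi208*, 87.5% identical, share the ISRE letters, whose part in the rise was not tested.

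**Figure D3:**
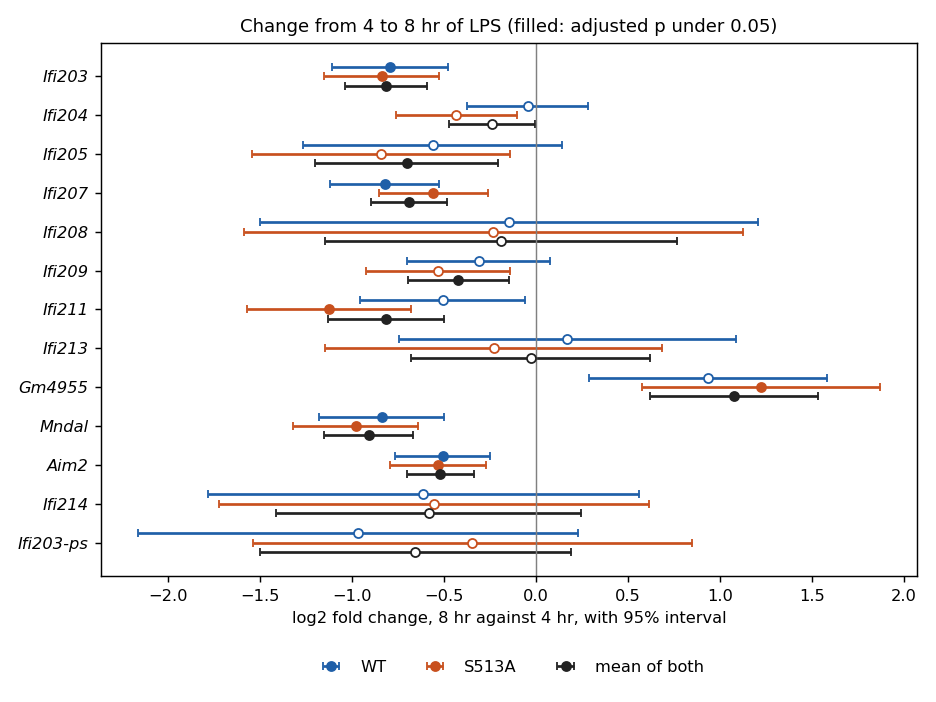
Log2 fold change at 8 hr against 4 hr, with 95% intervals, in WT (blue), S513A (orange) and the mean of both (black) for 13 PYHIN genes. Filled points passed an adjusted p of 0.05. *Gm4955* is the only gene to the right of 0 with its whole interval for the mean, 0.62 to 1.54, and *Mndal* lies farthest left among the means, at -0.91.

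The other PYHIN genes of the list rose as well. *Mndal*, a pyrin and HIN gene between *Ifi203-ps* and *Ifi211*, changed by 3.42 ± 0.11 at 4 hr and 2.51 ± 0.11 at 8 hr, and fell by 0.91 from 4 to 8 hr (adjusted p = 0.00021, limma). *Aim2* changed little, by 0.82 ± 0.08 at 4 hr and 0.30 ± 0.08 at 8 hr (adjusted p = 9.4e-06 and 0.012), with a log2 CPM of 4.95 to 5.10 at 0 hr, 5.77 to 5.96 at 4 hr and 5.21 to 5.47 at 8 hr. The pseudogene *Ifi203-ps* had 2 to 6 reads at 0 hr and 32 to 70 at 4 hr, and *Ifi214* had 1 to 4 and 17 or 18. Those 2 genes, like *Gm4955*, passed the filter only through the LPS libraries.

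The make-up of the family changed with LPS. Per kilobase of exon, *Ifi207* gave 49.7% of the summed signal of the 8 members at 0 hr (SD 2.4, n = 4 libraries), 16.6% at 4 hr (SD 4.0) and 15.2% at 8 hr (SD 2.2). *Ifi211* gave 10.6%, 28.0% and 23.8%, *Ifi205* gave 0.61%, 8.08% and 7.41%, and *Ifi204* gave 22.2%, 21.02% and 26.6%. *Ifi208* and *Ifi213* stayed below 1% each in every library. Reads on the family made up 0.0245% of the reads on all listed genes at 0 hr, 0.171% at 4 hr and 0.123% at 8 hr.

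Levels per length were compared as log2 CPM per kilobase. At 0 hr the order was *Ifi207* (4.99 ± 0.11, SD, n = 4), *Ifi204* (3.83 ± 0.11), *Ifi209* (2.94 ± 0.14), *Ifi211* (2.76 ± 0.27), *Ifi203* (1.62 ± 0.12), *Ifi205* (-1.41 ± 0.53), *Ifi208* (-4.17 ± 1.08) and *Ifi213* (-4.36 ± 0.62). Neighbours whose means lay closer than the sum of their SDs were *Ifi209* with *Ifi211* and *Ifi208* with *Ifi213*. At 4 hr *Ifi211* came first at 7.23 ± 0.38, followed by *Ifi204* at 6.82 ± 0.32, *Ifi207* at 6.45 ± 0.15 and *Ifi209* at 6.39 ± 0.32, and no neighbours among these 4 were farther apart than the sum of their SDs.

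**Figure D4:**
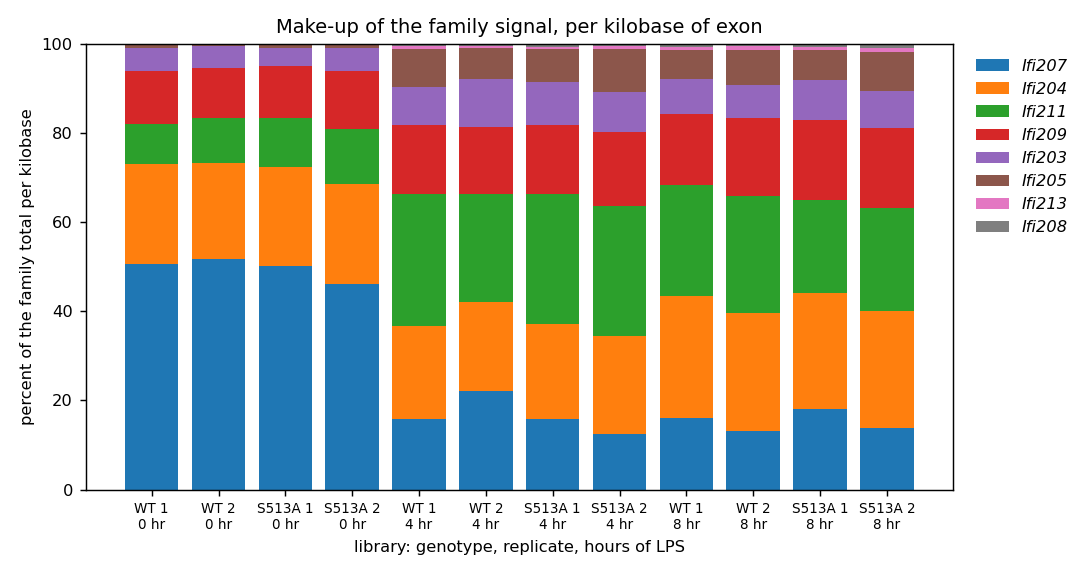
Share of the summed signal per kilobase of exon that each of the 8 members gave in each of the 12 libraries, as stacked bars in percent. *Ifi207* takes 46.1 to 51.7% in the 0 hr libraries and at most 22.2% in the LPS libraries, and *Ifi211* grows from at most 12.2% to between 20.8 and 29.6%.

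By Pearson correlation the family resembled *Parp9*, *Ifit1*, *Cd40*, *Irgm2* and *Usp18* most, with values of 0.9986, 0.9984, 0.9978, 0.9976 and 0.9975 to the mean of the standardized log2 CPM of the 8 members over the 12 libraries. The libraries fall in the 3 time points, which all these genes separate. By Spearman correlation *Usp18* was the 38th and *Irgm2* the 296th most alike gene. *Ifit1*, *Irgm2* and *Usp18* are interferon-stimulated genes, *Parp9* works with a partner in the interferon response, and *Cd40* encodes a costimulatory receptor. *Ifi207* followed the mean of the other 7 members least, at 0.896, with 0.970 to 0.997 for the others.

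Related pathways were described from gene lists. Of 32 interferon-stimulated genes measurable at 0 hr, 32 were higher at 4 hr and 32 at 8 hr, with medians of 3.51 and 3.50. Of all genes measurable at 0 hr, 28% were higher at 4 hr and 23.3% at 8 hr. *Cxcl10* (10.86), *Ifit1* (7.27) and *Mx1* (6.99) changed most at 4 hr among those of the whole list that passed. From 4 to 8 hr, 6 of these 32 were higher and 12 lower, against 12.8% of all genes tested in each direction. The same shares apply to 18 immediate NF-kappaB targets measurable at 0 hr, which were all higher at 4 and 8 hr. Of these 18, 15 were lower and 1 higher at 8 hr than at 4 hr. *Il12b* (8.93), *Il6* (8.65) and *Ptgs2* (7.44) were the most changed of the whole list at 4 hr. *Cxcl10*, *Il12b* and *Il6* entered the test only through the LPS libraries.

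Of 13 genes of type I interferon and its signalling, 11 were higher and 1 lower at 4 hr, against 29.1% of all genes higher and 26.7% lower, shares that also apply to the AIM2 and DNA sensing lists. *Socs1*, an inhibitor of JAK kinases, changed by 4.69, *Usp18*, an inhibitor of the receptor, by 4.49 and *Irf7*, a factor that amplifies interferon expression, by 2.95. *Irf7* rose further from 4 to 8 hr, by 1.22 (adjusted p = 7.87e-05, limma). Of 12 genes of the AIM2 inflammasome list, 8 were higher and 2 lower at 4 hr, with *Il1b* at 8.31, *Nlrp3* at 4.16 and *Il18* at 3.07. Of 22 genes of cytosolic DNA sensing, 9 were higher and 8 lower, with *Zbp1* at 3.37, *Trex1* at 3.27 and *Trim56* at 2.40. Listed genes of distal chromosome 1 outside the PYHIN family, not all next to the cluster, changed in both directions. Of 14 measurable at 0 hr, 9 were higher, against 28% of all such genes, and 4 lower at 4 hr, with *Slamf6* at 1.69. *Slamf1* (3.85) and *F11r* (3.29) entered the test only through the LPS libraries.

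S513A was compared with WT at each time to ask whether the allele changes these genes. By limma none of the 8 members passed at 0, 4 or 8 hr or in the mean of the 3 times, where 0.0337%, 0.0168%, 0.0337% and 0.0673% of all genes did, and the smallest adjusted p of a member was 0.40, for *Ifi203* at 8 hr. At an unadjusted p under 0.05, 1, 4, 1 and 5 of 8 members were higher in S513A, against 5.1%, 2.43%, 4.26% and 3.17% of all genes. In the mean of the 3 times the differences ran from 0.12 for *Ifi207* to 0.54 ± 0.18 for *Ifi205*, with *Ifi209* at 0.32 ± 0.10, *Ifi211* at 0.30 ± 0.12, *Ifi204* at 0.27 ± 0.09 and *Ifi203* at 0.26 ± 0.08, and *Gm4955* at 0.44 ± 0.17 (adjusted p of 0.56 or more, limma). voom weights also called 0 members at every time. The interactions of genotype with LPS at 4 and 8 hr also gave 0 members and 0% of all genes, while 144 and 2405 of 11885 genes had an unadjusted p under 0.05 there and none of the members did.

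At 4 hr the S513A libraries did not overlap the WT libraries and were higher for 7 of 8 members, all but *Ifi207*, against 14.3% of all genes. At 0 hr this held for *Ifi204*, *Ifi205*, *Ifi209* and *Ifi211*, against 30.4% of all genes, and at 8 hr for *Ifi203* and *Ifi207*, against 27.9%. *Ifi204* was 0.50 higher in S513A at 4 hr (95% interval 0.17 to 0.83, unadjusted p = 0.0064, adjusted p = 0.62, limma). *Ifi211* was 0.55 higher (0.10 to 1.00), *Ifi209* 0.48 higher (0.09 to 0.87) and *Ifi203* 0.38 higher (0.07 to 0.70), each with the same adjusted p. *Ifi205*, *Ifi208* and *Ifi213* differed by 0.56 with intervals that include 0, and *Ifi207* by 0.01 (-0.28 to 0.31), a value that turned to -0.10 under quantile normalization.

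Other measures also moved at 4 hr. The S513A libraries held 9812085 and 10930502 reads and the WT libraries 11176647 and 12381047. Dendritic cell markers summed to between 38.0 and 50.3 CPM in S513A and 33.3 and 37.9 CPM in WT. B cell markers summed to between 19.98 and 20.18 CPM in S513A and 22.7 and 23.2 CPM in WT. These were the lists whose WT and S513A libraries did not overlap at 4 hr, 2 of 9 lists, against 4 at 0 hr and 7 at 8 hr, where all 7 were lower in S513A. Their part in the result was not tested. Of the 36 interferon-stimulated genes, none passed at 4 hr or in the mean of the 3 times by limma. At an unadjusted p under 0.05 there were 11 at 4 hr, against 833 of 11885 genes, with a median difference of 0.39 (0.0068 over all genes), and 23 in the mean, against 798 of 11885, with a median of 0.25 (0.0066).

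**Figure D5:**
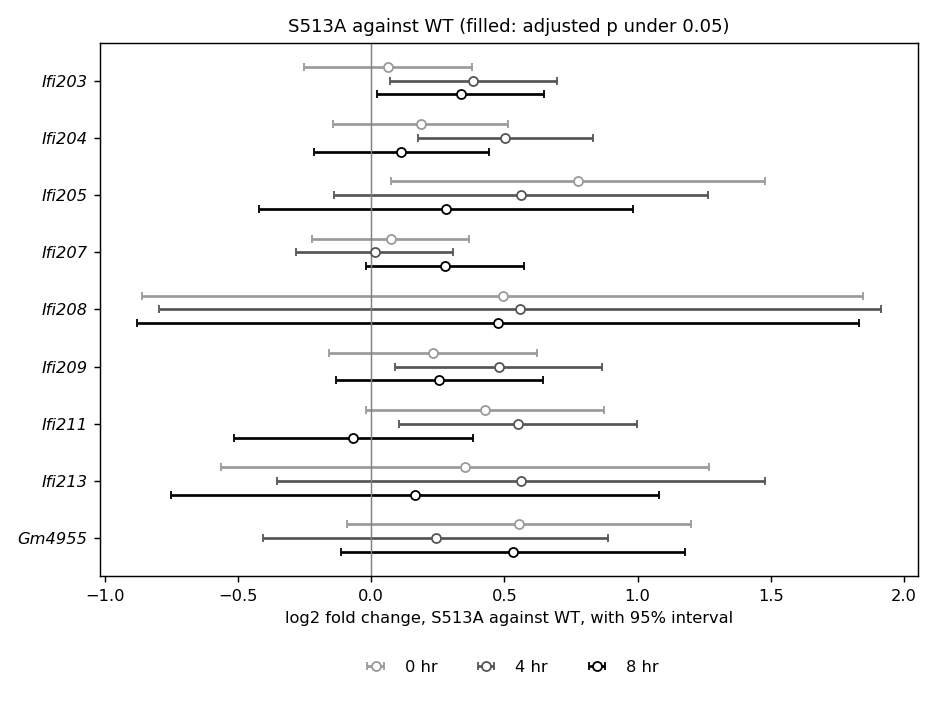
Log2 fold change of S513A against WT at 0 hr (light grey), 4 hr (dark grey) and 8 hr (black), with 95% intervals, for the 8 members and *Gm4955*. All points are open because none passed an adjusted p of 0.05. Most lie to the right of 0, between 0.01 and 0.78, and *Ifi211* at 8 hr lies at -0.07.

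Several members share sequence, so that reads could be split between them or lost. Over all 50-base stretches of their annotated exons, 72.8% of those of *Ifi211* also occur in another gene of the annotation, most often *Ifi205* (44.7%), and the share was 33.8% for *Ifi209*, most with *Ifi214*, 20.9% for *Ifi208*, 20.02% for *Ifi204*, 18.6% for *Ifi205*, 15.6% for *Ifi213*, 12.4% for *Ifi203* and 7.29% for *Ifi207*. Values of *Ifi211* and *Ifi209* are the least certain of the family for this reason. For *Ifi206*, listed as *Gm4955*, the share was 25.6%, most with *Ifi208* (11.1%), so the same limit applies to its values. Reads were mapped as unstranded, and one gene model of *Mndal* in the GENCODE annotation runs through *Ifi211* and *Ifi203*.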

How the data were processed

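RNA from PECs of WT and S513A mice was sequenced in 12 libraries. The authors mapped paired-end reads as unstranded on mm10 with HISAT2 and counted them per gene with featureCounts 1.6.3, per the paper's methods and the submitters' processing notes. The deposited values are log2 CPM computed after 0.5 read was added, over an effective library size. The annotation, normalization program and low-value filter are not given in the sources used here. Whole reads were recovered from the steps between values, within 0.00145 read.

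Genes with at least 1 CPM in 2 libraries were kept, leaving 11885. limma 3.58.1 (R 4.3.3) was fitted to the deposited log2 values with 1 mean per group (6 residual degrees of freedom) and a trended prior, with two-sided p values adjusted by the Benjamini-Hochberg method over all genes tested. The fit was tested on simulated data. Named genes were the members, other PYHIN genes, the 3 most changed genes of each list at 4 hr among those past the threshold, the 5 genes most like the members' mean, and *Irf7* and *Zc3h12a*. *Ddx58*, *Parp11*, *Pnrc1*, *Ripk1* and *Serpinb6a*, which hold the 10 ISRE letters, were chosen after their values were seen. A further gene of this rule is not reported here. Members and lists were chosen with earlier results of these data known. Alternatives were other filters, a further pseudocount of 1, other scalings, replicate blocks, other priors, voom weights, subsets of libraries and each library left out. Exon lengths came from GENCODE and promoters from RefSeq, both GRCm38. Intervals on reads cover counting error only.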

Additional observations from a re-analysis of the deposited data

How the results depend on the processing

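Against 0 hr, the 8 members kept their calls at 4 and 8 hr, in each genotype and in the mean, under the alternatives run. The exception was quantile normalization, which called 7 at 8 hr in WT. *Ifi208* and *Ifi213* are among the 8 but entered the test only through the LPS libraries, so their calls add no support. No alternative from the list called a member between genotypes. From 4 to 8 hr the 5 members called lower became 3 under quantile normalization, without a trend in the prior and with only the libraries compared, where *Ifi205* and *Ifi209* were lost. *Ifi205* was also lost with the replicate block (adjusted p = 0.058, limma). With 1 library left out, this count ran from 3 to 5, that of WT alone from 1 to 2 and that of S513A alone from 1 to 5.

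The replicate numbers did not meet the bar set for pairing, a correlation over 0.1 in every pair of groups. Over the 15 pairs, deviations of same-numbered libraries correlated at -0.41 to 0.42, over 0.1 in 5 pairs, with S513A at 4 and 8 hr the highest. The replicate block called 8 members at 4 hr, 8 at 8 hr and 4 from 4 to 8 hr, and 0 between genotypes. The calls of *Ifi208* and *Ifi213* against 0 hr again add no support. The 2 WT and 2 S513A libraries at 4 hr deviated oppositely by number, and a crossed block, chosen after seeing the data and with only those 4 libraries, called 7 members higher and 1231 genes in all, against 5 genes with the numbers as given.

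*Ifi207* in S513A against WT at 4 hr reversed to -0.10 under quantile normalization. Small differences also changed sign with 1 library left out. From 4 to 8 hr *Ifi208* ran from -0.39 to 0.0093 and *Ifi213* from -0.20 to 0.15. Between genotypes at 0 hr *Ifi203* ran from -0.077 to 0.20, *Ifi207* from -0.027 to 0.17, *Ifi208* from -0.60 to 1.58 and *Ifi213* from -0.27 to 0.97. At 4 hr *Ifi207* ran from -0.17 to 0.20. At 8 hr *Ifi204* ran from -0.054 to 0.28, *Ifi205* from -0.056 to 0.62, *Ifi209* from -0.00097 to 0.51, *Ifi211* from -0.30 to 0.16 and *Ifi213* from -0.10 to 0.42. The cause was not tested.

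The median change of all genes at 4 hr, 0.017, was 0.0025 under median-ratio scaling and -0.065 under quantile normalization. With 2 libraries a group, a genotype difference had a median standard error of 0.18 on the log2 scale. At 0 hr *Ifi208*, *Ifi213* and *Ifi214* had 1 to 7 reads per library, too few to compare genotypes.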
